A study of Mus musculus with 29 samples.

Results

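The GRdim receptor was followed in liver from mice at 6am to mice given prednisolone and also sampled at 6am. The comparison rests on 6391 GR ChIP-seq peaks, 3183 at 6am and 3208 after prednisolone, out of 38186 in the 6 GR lists of the series. It also uses 13552 and 34348 ChIP-exo borders on nuclear chromosomes, in the same order. All peaks of both lists entered the comparison. A peak was called kept when it overlapped a peak of the other list by at least 1 bp, new when listed after prednisolone only, and lost when listed at 6am only.

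GR is the glucocorticoid receptor, a nuclear receptor that binds DNA when occupied by corticosterone, the main glucocorticoid of mice, or by a drug such as prednisolone. It binds as a dimer to palindromic response elements and is also recruited to DNA together with other factors. In liver it acts on genes of glucose, amino acid and lipid metabolism. The GRdim receptor carries a point mutation in the dimerization loop of its DNA-binding domain. In ChIP-exo an exonuclease trims the precipitated DNA up to the bound protein, so tags pile up in borders on the plus and minus strands on either side of a contact.

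The series describes 29 samples, of which 4 are compared here: GR ChIP-seq and GR ChIP-exo of GRdim livers in both states. Mice were 12-week-old GRdim males on a BALB/c background, kept in a 12 h light cycle, and 6am was the start of the light phase. Treated mice carried subcutaneous prednisolone pellets (12 mg/kg) for 24 h. The labels name no treatment for the 6am mice and mention no placebo pellet. WT animals used for reference were GR+/+ littermates under the same conditions, also sampled at 6pm, the start of the dark phase. The mutation is present in all cells of these mice, and whole liver was used, so cell types are not separated. Each list came from 1 pool of 2 replicates. Replicate error could thus not be measured and no p-value is given. All intervals are 95% intervals that cover counting of peaks or tags only. The labels do not say whether the ChIP-seq and ChIP-exo pools came from the same livers.

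The ChIP-exo libraries held 31.6 M tags at 6am and 45.2 M tags after prednisolone, so the treated library was deeper. RPM below are the authors' tags scaled to these library sizes. Only called borders are listed, and the nuclear ones held 0.547% and 0.993% of these tags. The median nuclear border had 11 tags in either library. For ChIP-seq the depth is unknown. All positions are in mm9, counted from 1. No gene name or sequence is printed, because annotation of mm9 was not used here.

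The GRdim GR list after prednisolone was almost as long as that at 6am, while about 1 in 3 entries was exchanged between them. Each state has 1 list, so the exchange between lists of the same state could not be measured. Of the 3183 peaks at 6am, 2063 (64.8%, 63.1 to 66.5) were found after prednisolone and 1120 were lost. Of the 3208 peaks after prednisolone, 64.3% (62.6 to 65.9) were found at 6am and 1145 were new. Over the 4328 regions of both lists together, 26.5% were new and 25.9% were lost. Kept regions paired 1 to 1, and their centres differed by a median of 18.0 bp. Few pairs lay near the limit of the overlap rule: 6 kept pairs overlapped by 50 bp or less, and 9 lost and 8 new peaks had a centre of the other list within 300 bp. The median new peak lay 77.0 kb from the nearest 6am peak, and the median lost peak 45.7 kb from the nearest prednisolone peak.

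The exchange was concentrated among low scores. The authors' score per peak, in a unit that is not stated, was used by rank within a list and is printed as deposited. Scores were not scaled between lists. When each list was divided by score into 10 equal parts, 95.6% (92.8 to 97.4) of the highest part of the 6am list was found after prednisolone, and 34.9% (29.9 to 40.3) of the lowest part. In the prednisolone list the shares found at 6am were 94.1% (90.9 to 96.2) and 34.4% (29.4 to 39.7). Between these ends the share fell from each part to the next in both lists. New peaks had a median score of 2.30 and lost peaks of 2.39, near the lowest listed scores of 2.01 and 2.03. Kept peaks had medians of 3.00 at 6am and 2.86 after prednisolone. Both lists have a lowest score, so a peak that is missing from a list can be a weak one.

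**Figure D1:**
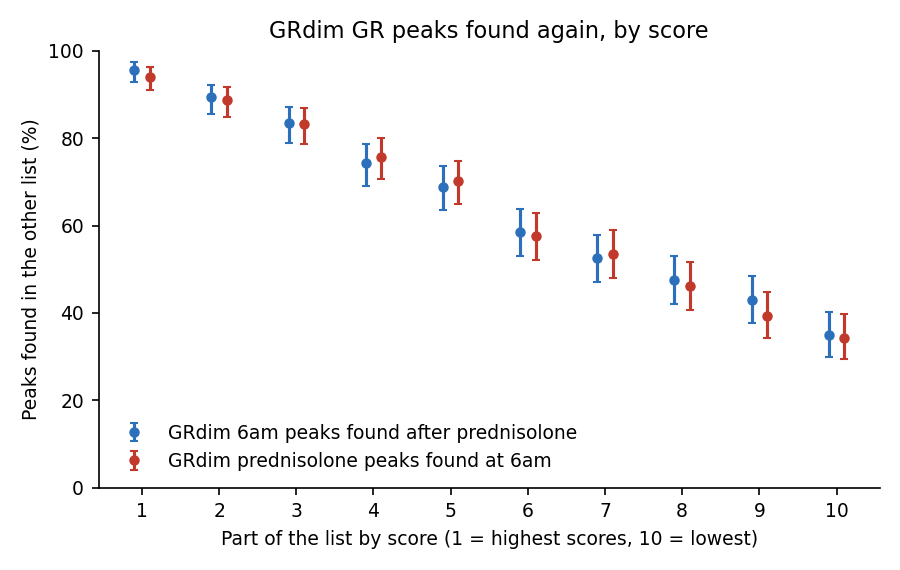
Share of GRdim GR peaks found in the other list (vertical axis, percent) for 10 equal parts of each list ordered by score (horizontal axis), with Wilson 95% intervals as bars. Both series run from about 95% at the highest scores to about 35% at the lowest.

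The share of the highest-scoring peaks that was new or lost was set beside that of WT. In the highest of 10 parts of the prednisolone list, 19 of 321 GRdim peaks were new, against 49 of 431 in WT. The share found at 6am was thus 5.45 percentage points higher in GRdim (Newcombe interval 1.33 to 9.40). It was 8.15 points higher (3.51 to 12.9) when all 4 lists were shortened to 3183 peaks. In the opposite direction, 14 of 319 GRdim and 7 of 579 WT peaks of the highest 6am part were lost. The share found differed by -3.18 points, GRdim minus WT (-6.09 to -1.01), and by -4.08 points (-6.93 to -1.80) at equal lengths. These values describe 1 pool per genotype and state, and a difference between the genotypes was not tested over animals.

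Scores of kept regions were reordered in part. Across the 2063 kept regions the Spearman correlation of scores was 0.56, against 0.63 across 3193 kept regions in WT. Regions of a genotype share 1 pool per state, so these values are descriptions. A score percentile was defined with 100 for the highest score of a list. It rose by at least 25 points at 339 kept regions (16.4%) and fell by at least 25 points at 322 (15.6%). The median shift was 0.32 points in GRdim, with quartiles of -15.1 and 15.3. In WT, where the list shortened, the median shift was -8.85, with 254 rises and 833 falls of that size.

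**Figure D2:**
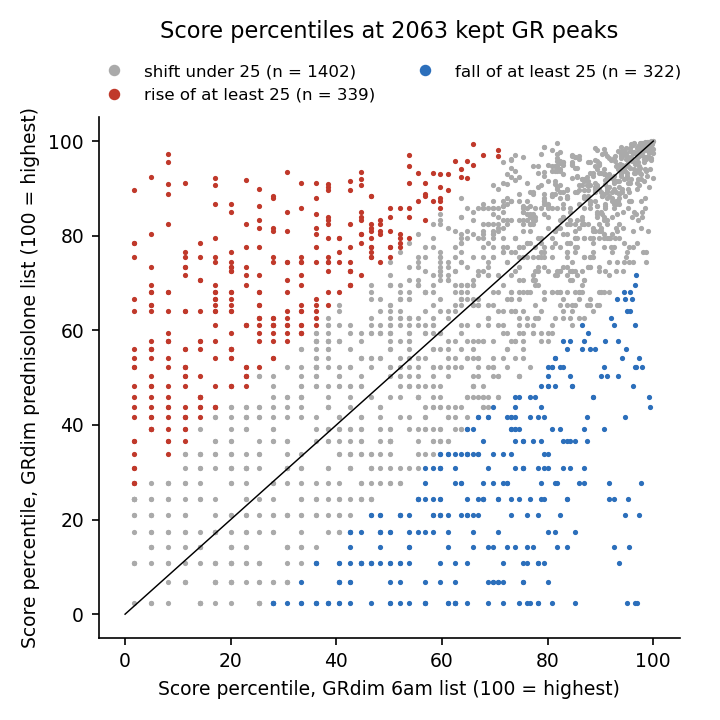
Score percentile of each of the 2063 kept GRdim regions in the 6am list (horizontal axis) and in the prednisolone list (vertical axis), with the line of equal percentiles. Points are densest near the line at the top right, and the 339 rises and 322 falls of at least 25 points lie on either side of it.

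The regions with the highest prednisolone scores were also among the highest at 6am. The region on chromosome 2 at 27480485 to 27480684 led both GRdim lists, with scores of 14.90 at 6am and 13.57 after prednisolone. It held 17 borders in each ChIP-exo library, with 606 tags at 6am and 735 after prednisolone. Scaled to library size, as the authors' RPM, this is 19.2 and 16.3, a ratio of 0.849 (exact interval 0.762 to 0.947). The chromosome 1 region at 182939876 to 182940075 was next in both lists, with 11.76 and 9.55. Its ChIP-exo tags were 293 and 315, a ratio of RPM of 0.753 (0.640 to 0.886). At both leading regions the prednisolone library thus held fewer RPM than the 6am library.

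The chromosome 1 region at 38298713 to 38298912 scored 9.51 and 9.0, and the chromosome 11 region at 120492725 to 120492924 scored 10.27 and 8.92. Their RPM ratios were 1.11 (0.951 to 1.30) and 1.32 (1.11 to 1.57). A region on chromosome 18 scored 7.85 and 8.88, with a ratio of 1.35 (1.17 to 1.57). All 5 regions were listed in every GR and C/EBPβ list of the series.

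The new peak with the highest score lay on chromosome 3 at 9822077 to 9822276, with 7.84 after prednisolone. Its 12 ChIP-exo borders held 470 tags in the prednisolone library, and no border was listed at 6am. A 6am ChIP-seq peak was centred 427 bp away. The next new peak, on chromosome 10 at 7494139 to 7494338, scored 7.51 and had 13 borders with 649 tags, with no border at 6am. It lay 67406 bp from the nearest 6am peak. Neither region was in a WT GR list, and both were in the GRdim 6pm list.

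The third new peak, on chromosome 7 at 46458377 to 46458576, scored 6.84, and its ChIP-exo values differ from those of the first 2. The 6am library already held 8 borders with 271 tags there, against 11 borders with 581 tags after prednisolone, a ratio of RPM of 1.50 (1.30 to 1.74). No 6am ChIP-seq peak was listed within 841273 bp. So its absence from the 6am ChIP-seq list was not matched by an absence of ChIP-exo tags. The region was listed in GRdim at 6pm (6.85) and in WT at 6am (6.39) and 6pm (8.88). It was missing from the WT prednisolone list, although that ChIP-exo library held 399 tags there. Whether rows were left out of the deposited lists could not be seen, which limits calling it new.

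The new peak on chromosome 2 at 146152481 to 146152680 scored 6.62 and went from 1 border with 8 tags to 9 borders with 300 tags. The ratio of RPM was 26.3, with a wide interval of 13.2 to 61.4 because few tags were listed at 6am. It belonged to a cluster of 3 new peaks within 10 kb of one another. The other two, at 146151217 to 146151416 and 146155983 to 146156182, scored 2.04 and 3.16 and held 53 and 50 tags after prednisolone. All 3 were in the GRdim 6pm list, with 2.81, 7.73 and 5.27 in order of position. In all, 35 new peaks formed 11 such clusters of at least 3, and 31 lost peaks formed 10.

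The fifth new peak, on chromosome 17 at 28649764 to 28649963, scored 5.76, with 17 borders and 316 tags after prednisolone and no border listed at 6am. It was in all 3 WT GR lists, with scores of 11.68 at 6am, 22.44 at 6pm and 19.14 after prednisolone. Within GRdim it was listed at 6pm with 6.64. Thus a region with high WT scores in every state was missing from 1 of the 3 GRdim lists, that of 6am, where no ChIP-exo border was listed either.

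The 5 highest-scoring lost peaks had fewer ChIP-exo tags after prednisolone, and so did WT livers at the same places. A region on chromosome 18 led with a 6am score of 7.27, and its 10 borders with 189 tags had no listed border after prednisolone. The region on chromosome 2 at 144024151 to 144024350 scored 7.13, and its 14 borders with 259 tags likewise had none after prednisolone. WT libraries listed 499 tags there at 6am and none after prednisolone. The region on chromosome 4 at 152269264 to 152269463 also scored 7.13, and its tags went from 100 to 24, a ratio of RPM of 0.168 (0.103 to 0.265).

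The chromosome 4 region at 149382479 to 149382678 scored 5.53 and went from 115 tags to no listed border. The chromosome 1 region at 107805213 to 107805412 scored 5.35 and went from 146 to 71 tags, a ratio of 0.341 (0.253 to 0.455). In WT the tags of these last regions went from 272 to 23 and from 221 to 106. All 5 lost regions were in the GRdim 6pm list and in all 3 WT GR lists, so what they had lost after prednisolone was a listing in GRdim. Each had a lower deposited score in the WT prednisolone list than in the WT 6am list, as at chromosome 2, with 7.04 at 6am and 2.06 after prednisolone. Whether the scales of these lists are alike was not tested.

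Across all new peaks, ChIP-exo showed the same direction as ChIP-seq. In the 6am library 31.2% (28.6 to 33.9) of the 1145 new peaks held a border, and in the prednisolone library 94.4% (92.9 to 95.6). A border appeared at 731 new peaks and disappeared at 7, and at kept peaks these counts were 325 and 20. Lost peaks did not show the opposite in the lists as deposited. Of the 1120 lost peaks, 66.2% (63.3 to 68.9) held a border at 6am and 70.2% (67.4 to 72.8) after prednisolone, with 229 appearing and 184 disappearing. Kept peaks, measured at their position in the prednisolone list for both libraries, held one in 83.8% (82.1 to 85.3) and 98.5% (97.9 to 99.0) of cases.

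The longer border list of the deeper treated library moves with these shares. The prednisolone list was then shortened to its 13552 borders with the most tags, the number listed at 6am. Its lowest value was 13 tags (0.288 RPM), and that of the 6am list stayed at 4 (0.126 RPM). The shortened list thus had the higher floor, which lowers its shares. With equal numbers, new peaks held a prednisolone border in 65.8% (63.0 to 68.5) of cases, still above their 31.2% at 6am. A border then appeared at 473 new peaks and disappeared at 77. Lost peaks held a prednisolone border in 34.0% (31.3 to 36.8), below their 66.2% at 6am. Kept peaks held one in 85.8% (84.3 to 87.3). At equal numbers of borders, then, new and lost peaks changed in opposite directions by 34.6 and -32.1 percentage points, and kept peaks by 2.08 points. For lost peaks the direction depended on the number of borders listed. Among the 166 lost peaks with a score of at least 3, the share fell under either count, from 93.4% (88.5 to 96.3) at 6am to 75.3% (68.2 to 81.2) as listed and 39.2% (32.1 to 46.7) with equal numbers.

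**Figure D3:**
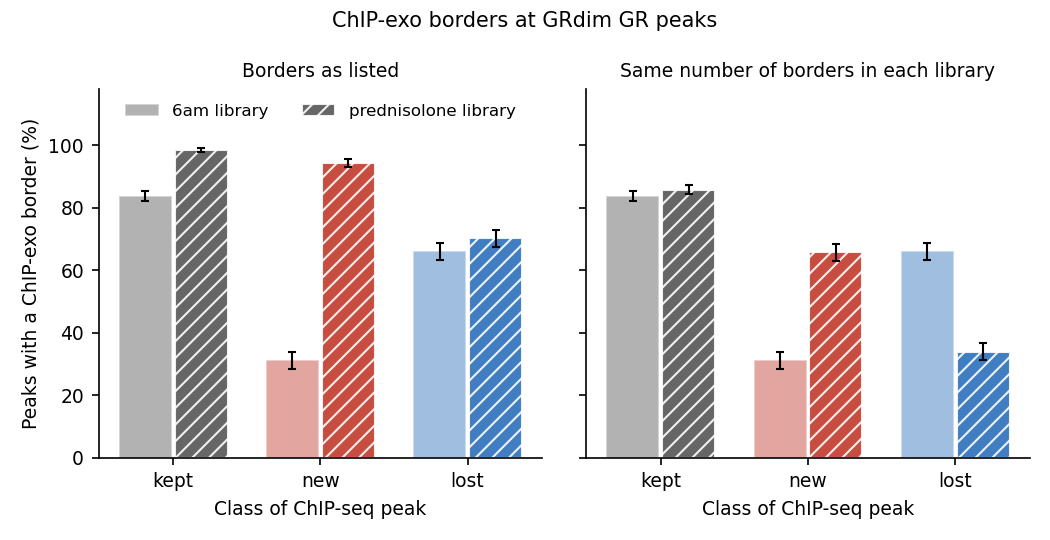
Share of kept, new and lost GRdim peaks (horizontal axis) that hold a ChIP-exo border (vertical axis, percent) in the 6am library (pale) and the prednisolone library (hatched), with Wilson 95% intervals. Left, all listed borders; right, the 13552 borders with the most tags in each library, where lost peaks go from 66.2% to 34.0%.

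The amount of signal ordered the classes in the same way. Summed over new peaks, listed borders held 199 RPM at 6am, over 5.58 kb of border, and 1235 RPM over 39.9 kb after prednisolone. The mean per border was 0.352 and 0.293 RPM. With equal numbers of borders it was 0.352 and 0.396 RPM. Shortening removes the weakest prednisolone borders and so raises their mean, and no direction of the mean per border can be read from it. The sum was larger after prednisolone under both counts (691 RPM over 17.0 kb with equal numbers). Over lost peaks the sums were 626 RPM over 15.9 kb and 519 RPM over 19.6 kb, and over kept peaks 2885 RPM over 60.6 kb and 4374 RPM over 119 kb. At peaks with borders in both libraries, the median log2 ratio of RPM, prednisolone over 6am, was 1.29 (1.12 to 1.36) at 350 new, 0.71 (0.64 to 0.76) at 1708 kept and -0.17 (-0.31 to 0.0097) at 557 lost peaks. With equal numbers of borders it was 0.58, 0.15 and -0.40.

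The sign at kept peaks rested on how tags were summed. With the plus and the minus border of highest count alone, the median was -0.11 (-0.15 to -0.086) at 1015 kept peaks, 0.034 at 67 new and -0.53 at 136 lost peaks. The order of the 3 classes was the same under each way of summing. Over all 2615 regions with borders in both libraries, RPM was at least 2-fold higher after prednisolone at 37.1% and at least 2-fold lower at 10.5%. Against that background, 211 of the 350 new peaks (60.3%) were at least 2-fold higher and 158 of the 557 lost peaks (28.4%) at least 2-fold lower. With equal numbers of borders, 21.7% of regions were higher and 16.2% lower by that factor. New peaks had 35.4% higher, and lost peaks 32.4% lower. With the strongest border of each strand alone, few peaks passed that factor. At least 2-fold higher were 2.99% of the 67 new and 0.39% of the 1015 kept peaks. At least 2-fold lower were 16.2% of the 136 lost and 3.94% of the kept peaks. The 2-fold shares thus depended on summing over all listed borders.

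Among kept peaks, ChIP-exo followed the ChIP-seq rank. The median log2 ratio of RPM was -0.059 (-0.20 to 0.15) at peaks whose percentile fell by at least 25 points and 1.42 (1.24 to 1.59) at those that rose by at least 25. With equal numbers of borders these were -0.57 (-0.83 to -0.29) and 0.80 (0.62 to 1.02), and with the strongest borders -0.41 (-0.57 to -0.30) and 0.071 (-0.018 to 0.24). Across 1708 kept peaks the Spearman correlation of both shifts was 0.38, and across 3045 in WT it was 0.63, with peaks of 1 pool per state in each.

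**Figure D4:**
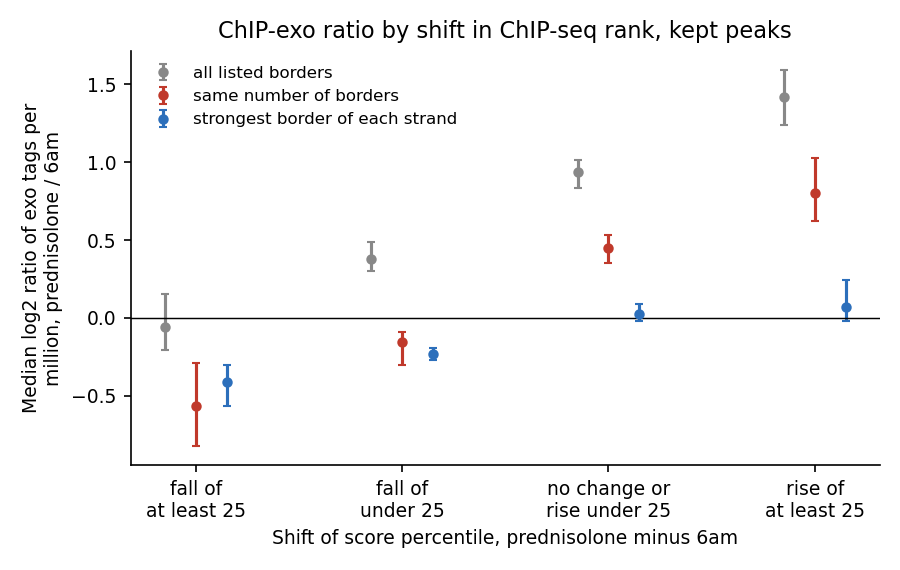
Median log2 ratio of ChIP-exo RPM, prednisolone over 6am (vertical axis), at kept GRdim peaks grouped by the shift of their ChIP-seq score percentile (horizontal axis), with 95% intervals over peaks, for 3 ways of summing borders. Each way runs upward from peaks that fell to peaks that rose, from -0.57 to 0.80 with the same number of borders.

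Single regions show the range of these shifts. The largest rise was at chromosome 4, 71722101 to 71722300, where the score went from 2.10 to 5.43 and the tags from 17 in 1 border to 279 in 14. The ratio of RPM was 11.5 (7.05 to 20.0). The chromosome 10 region at 30046748 to 30046947 went from 2.10 to 4.91 and from 25 to 243 tags, a ratio of 6.81 (4.50 to 10.7). The other 3 of the 5 largest rises lay on chromosomes 4 (144631541 to 144631740), 5 (65135772 to 65135971) and 10 (39152512 to 39152711) and had no border listed at 6am. After prednisolone they held 91, 80 and 172 tags. So each of the 5 regions with the largest rise in rank had more RPM after prednisolone, or borders only then.

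The largest fall was at chromosome 4, 108035231 to 108035430, where the score went from 6.33 to 2.01 and the tags from 134 to 51, a ratio of RPM of 0.267 (0.189 to 0.371). In WT the same place had 411 tags at 6am and no listed border after prednisolone. The chromosome 2 region at 103423519 to 103423718 went from 6.04 to 2.01 and from 171 to 44 tags, a ratio of 0.180 (0.126 to 0.252). It was also among the 3 lowest RPM ratios of the 1183 kept peaks with at least 20 tags in each library. The chromosome 3 region at 10129299 to 10129498 fell from 5.53 to 2.01, with a ratio of 0.189 (0.128 to 0.274), and the chromosome 5 region at 90879081 to 90879280 from 5.21 to 2.08, with 0.230 (0.142 to 0.363). A region on chromosome 18 fell from 4.12 to 2.01, with a ratio of 0.724 whose interval (0.498 to 1.05) includes 1. In 4 of the 5 largest falls in rank RPM thus fell beyond their counting error.

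Among the 1183 kept peaks with at least 20 tags in each library, the lowest RPM ratio lay on chromosome 13 at 31639575 to 31639774, 0.125 (0.0875 to 0.174), with 236 tags at 6am and 42 after prednisolone. Its score went from 8.64 to 2.49. The next lowest, on chromosome 13 at 42183810 to 42184009, was 0.132 (0.0924 to 0.185), and its score went from 6.80 to 2.64. The 3 highest ratios among these 1183 peaks were 7.28 to 7.32. Kept peaks with fewer tags at 6am reached higher ratios, as at the chromosome 4 region with 17 tags above. The 3 highest of the 1183 lay on chromosome 13 (59100721 to 59100920), chromosome 17 (27957850 to 27958049) and chromosome 6 (143435653 to 143435852). Their tags went from 24 to 251, from 29 to 303 and from 20 to 208, each from 2 borders at 6am to 16 or 17. Their score percentiles rose by 11.9, 0.97 and 52.5 points, so similar RPM ratios stood beside rank shifts of different size.

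Border positions were shared at a minority of sites. Of the 13552 nuclear borders at 6am, 26.2% (25.5 to 26.9) had a prednisolone border on the same strand within 2 bp. Inside kept peaks the share was 32.5% (31.4 to 33.7), and inside new peaks it was also 32.5% (28.8 to 36.5, of 566 borders). It was 15.6% (14.0 to 17.5) inside lost peaks and 20.6% (19.4 to 21.8) outside the peaks of both lists. A shared position was thus not particular to kept peaks. Of the 34348 prednisolone borders, 10.3% (10.0 to 10.7) had a 6am border, with 16.1% inside kept and 4.38% inside new peaks. The shorter 6am list of 13552 borders limits these shares. The strongest border of each strand within 100 bp of the peak centre was at the same position in both libraries at 103 of 1015 kept GRdim peaks (10.1%, 8.44 to 12.2). In WT this held at 615 of 2454 kept peaks (25.1%, 23.4 to 26.8). The median WT border held 13 tags at 6am and 14 after prednisolone, more than in GRdim, and the part of this in the difference was not tested.

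The spacing of borders at new peaks could not be told from that at kept peaks. For the strongest borders on the plus and minus strands, the commonest distance above 15 bp was 25 bp at new peaks and 26 bp at kept peaks in the prednisolone library, and 25 bp at kept peaks at 6am. A distance of 24 to 26 bp was found at 5.13% (3.8 to 6.89) of 799 new and 6.53% (5.48 to 7.77) of 1792 kept peaks with both borders. A window of 3 bp between 40 and 60 bp held 2.47% and 2.57% of them on average. Lost peaks had 3.96% (2.28 to 6.79) of 303 at 6am. Below the 15 bp limit, 10 to 12 bp was about as common in the prednisolone library, at 5.38% (4.02 to 7.17) of new and 5.58% (4.61 to 6.74) of kept peaks. A distance of 29 to 31 bp was found at 2.25% of new and 2.23% of kept peaks, no more than that background. In the WT prednisolone library the same GRdim regions had 29 to 31 bp at 6.06% (4.34 to 8.38) of 545 new and 5.42% (4.41 to 6.64) of 1587 kept peaks. They also had 24 to 26 bp there, at 4.77% (3.28 to 6.90) of new and 4.28% (3.39 to 5.40) of kept peaks. The WT background between 40 and 60 bp was 2.12% and 2.08%, so 24 to 26 bp was not particular to GRdim.

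Most peaks of each class, not only the new ones, were also listed at 6pm, when endogenous corticosterone is high in mice. The GRdim 6pm list held 919 of the 1145 new peaks (80.3%, 77.9 to 82.5), and the WT 6pm list 974 (85.1%, 82.9 to 87.0). In no other GR list were 89 (7.77%, 6.36 to 9.47). Of these 89, the highest score was 5.35, and 81 (91.0%, 83.3 to 95.4) held a prednisolone ChIP-exo border against 10 (11.2%, 6.22 to 19.5) at 6am. Lost peaks were in the GRdim 6pm list in 82.1% (79.8 to 84.3) of cases, and 35 of them were in no other GR list. Kept peaks were in the GRdim 6pm list in 98.9% (98.3 to 99.3) of cases, where their median percentile was 84.0, against 53.8 for new and 57.2 for lost peaks. The 200 lost peaks missing at 6pm held a border in 67.5% (60.7 to 73.6) of cases at 6am and 42.0% (35.4 to 48.9) after prednisolone, so for them the share fell in the lists as deposited. The WT 6pm list held 92.5% (90.8 to 93.9) of lost and 97.8% (97.1 to 98.4) of kept peaks, both more than of new peaks. The 6pm lists are the longest of each genotype, with 7440 GRdim and 14270 WT peaks.

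Lost GRdim peaks were less often listed after prednisolone than at 6am in WT livers, which are separate pools, and so were kept peaks. Of the lost GRdim peaks, 76.8% (74.2 to 79.2) were in the WT 6am list and 37.1% (34.4 to 40.01) in the WT prednisolone list. For kept peaks the shares were 91.4% and 78.7%, and for new peaks 41.9% and 40.4%. Peaks listed in WT at 6am had a median percentile there of 52.8 for lost, 71.8 for kept and 42.4 for new peaks. Of these, 469 of 860 lost, 336 of 1885 kept and 189 of 480 new peaks were missing from the WT prednisolone list. Of all WT 6am peaks scoring 2.89 to 3.2, 45.5% were missing there, and of those scoring 2.66 to 2.89, 53.8%. Whether lost peaks differed from WT peaks of similar score was not tested. The WT prednisolone list is the shorter one. With both WT lists at 4304 peaks, the share with a WT peak was 10.7 points higher after prednisolone than at 6am at new peaks, and differed by -5.87 points at kept and -24.4 points at lost peaks. In the equal lists, 240 new GRdim peaks had a WT peak after prednisolone only and 117 at 6am only, and lost peaks had 60 and 333. For new peaks the higher share after prednisolone was thus seen with equal lists only.

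Sites that changed in both genotypes were still a minority of the new ones. Of the new GRdim peaks, 171 (14.9%, 13.0 to 17.1) overlapped a new WT peak, which is 15.4% of the 1111 new WT peaks. Of the lost GRdim peaks, 468 (41.8%, 38.9 to 44.7) overlapped a lost WT peak, or 18.1% of the 2588 lost in WT. For comparison, a WT peak at 6am only was found at 41.9% of lost, 16.3% of kept and 16.5% of new GRdim peaks with the lists as deposited. These shares were not matched for WT 6am percentile, whose median was lower at lost than at kept peaks. A WT peak after prednisolone only was found at 15.02% of new, 3.64% of kept and 2.23% of lost peaks. New GRdim peaks thus had a WT peak at 6am only (189) about as often as after prednisolone only (172). Of all WT 6am peaks, 55.2% were found after prednisolone. At kept regions the WT percentile shift had a negative median whether GRdim rose or fell. It had a median of -19.4 (-23.0 to -15.8) at 225 regions that fell by at least 25 points in GRdim. At 226 regions that rose by at least 25 it was -4.82 (-8.51 to -2.77). Percentiles are ranks within a list, and over all 3193 kept WT regions, with the shorter prednisolone list, the median was -8.85. The 2 groups lay below and above that value. Across 1549 regions in all 4 lists the Spearman correlation of the shifts was 0.15.

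C/EBPβ, a liver transcription factor that shares many sites with GR, was profiled in WT only. A WT C/EBPβ peak of 6am overlapped 90.2% (88.9 to 91.4) of kept, 76.3% (73.8 to 78.7) of lost and 70.0% (67.2 to 72.5) of new GRdim peaks. In the WT prednisolone list the shares were 81.3% (79.6 to 83.0), 59.8% (56.9 to 62.7) and 71.3% (68.6 to 73.8). New minus lost peaks, the difference was -6.38 points (-10.0 to -2.73) at 6am and 11.4 points (7.54 to 15.3) after prednisolone. The order of new and lost peaks thus turned between the WT lists. At lost peaks 17 (1.52%) gained and 202 (18.0%) dropped a C/EBPβ peak, and at new peaks 76 (6.64%) gained and 61 (5.33%) dropped one. Kept peaks also dropped more than they gained, with 21 (1.02%) gained and 204 (9.89%) dropped. Of the 89 new peaks in no other GR list, 29 (32.6%, 23.7 to 42.9) held a C/EBPβ peak after prednisolone.

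**Figure D5:**
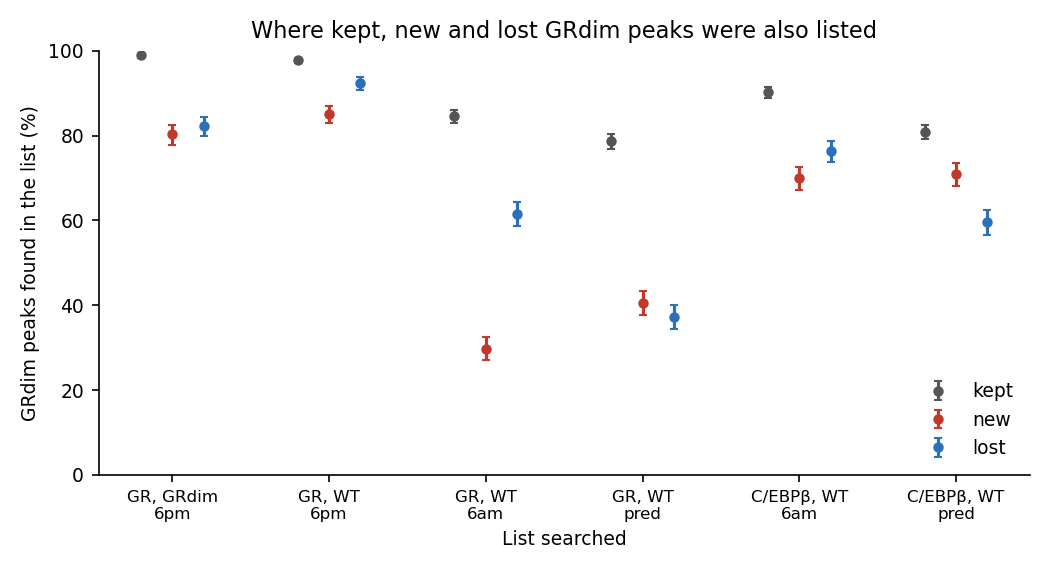
Share of kept, new and lost GRdim peaks (vertical axis, percent, with Wilson 95% intervals) found in 6 other lists (horizontal axis), with the WT 6am and prednisolone lists of each factor at equal length. Lost peaks go from 61.5% to 37.1% between the WT GR lists, and new peaks from 29.7% to 40.4%.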

How the data were processed

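Peaks and borders were used as the authors deposited them, 1 file per pool of 2 replicates. Bowtie, HOMER and mm9 appear in the submitters' processing notes, which do not give their role, version or thresholds. ChIP-seq files hold 200 bp peaks with a score deposited by the authors, whose unit is not stated. ChIP-exo files hold 10 bp borders with a deposited count of tags and the authors' RPM, per the file headers. Library size was taken as the count over its RPM. A deposited height signal was not used. Mitochondrial borders were left out, and the RPM still include their tags.

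Here overlaps, score percentiles, sums of tags per peak and distances between the strongest borders within 100 bp of a centre were computed. Shares have Wilson and differences Newcombe intervals, ratios of tags exact binomial intervals, and medians order-statistic intervals over peaks. Peaks are not independent replicates. Tags carry no molecular identifiers, so intervals cover counting error only.

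Regions named are the 5 highest-scoring kept, new and lost peaks, the 5 largest rises and falls in percentile, the 3 highest and 3 lowest ratios of RPM among kept peaks with at least 20 tags in each library, and the cluster holding the highest-scoring new peak of any cluster. The members, groups and rules were chosen with earlier results of these data known. The last choice, equal WT lists and the ratios at new and lost peaks under other ways of summing were added after seeing the data. Gene lists near peaks were planned and need an annotation of mm9, not used here. The code was tested on simulated data. It ran in Python 3.11.15 with scipy 1.17.1, pandas 2.3.3 and numpy 2.4.6, and figures were drawn with matplotlib 3.10.9.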

Additional observations from a re-analysis of the deposited data

Results flagged for a closer look

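Mitochondrial borders, which no comparison here used, were listed in both GRdim ChIP-exo libraries, 839 at 6am and 872 after prednisolone. They held 1.61% and 1.18% of the tags of their library, more than all listed nuclear borders together.

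At kept peaks the median log2 ratio of listed ChIP-exo RPM, prednisolone over 6am, was 0.71 in GRdim and -0.30 in WT, opposite in sign. The difference was not tested, and each value comes from 1 pool per state. In GRdim the treated library was the deeper one with 34348 nuclear borders against 13552, and in WT it listed 48351 against 65707. With the same number of borders the GRdim value was 0.15.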

How the results depend on the processing

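No paired analysis was possible because each list is 1 pool of 2 replicates. Leaving out a replicate was not possible for the same reason. Of the alternatives, 19 values stayed within the interval of the reported value, 29 moved outside it and 1 changed sign. With only the upper 50% of both lists by score, 62.8% of 6am peaks were found after prednisolone and 62.3% the other way. Requiring borders of both strands gave shares of 52.3% and 87.2% at kept, 6.99% and 70.0% at new, and 27.2% and 36.3% at lost peaks for the 6am and prednisolone libraries. Requiring at least 20 tags in a border gave 19.7% and 45.1%, 1.31% and 21.2%, and 6.07% and 6.34%. With the same number of borders the prednisolone shares were 85.8%, 65.8% and 34.0%. The median log2 ratios of tags were then 0.15 at kept, 0.58 at new and -0.40 at lost peaks, and with the strongest border of each strand -0.11, 0.034 and -0.53, so the kept value changed sign. With at least 20 tags on each border, distances of 24 to 26 bp were found at 10.4% (7.72 to 13.7) of 396 kept peaks after prednisolone. New peaks had them at 6.12% (2.10 to 16.5) of 49 in that library. Too few remained to read new peaks at 6am (0.0% of 2) or lost peaks (16.7% of 12 at 6am and 37.5% of 8 after prednisolone). With WT lists of the same length, WT 6am shares were 84.6% of kept, 29.7% of new and 61.5% of lost peaks. The cause of these moves was not tested beyond the smaller number of borders, peaks or tags each leaves. The score floor and the lower 6am exo depth limit what counts as absent.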
